A study of Mus musculus with 15 samples.

Results

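The potassium channel genes are the genes whose symbol is Kcn followed by letters and a number, which encode pore-forming and auxiliary subunits of potassium channels. Members were taken by name, and a gene entered when it had 10 or more counts in at least 3 of the 15 libraries. Of 23132 genes kept, 90 carried such a symbol, beside 2 set aside by name, and 75 passed. If 3 libraries of every group were required to reach the count, 61 would have passed. The members nearest to the limit were Kcne2, Kcne4 and Kcnk4, with 10 counts in 6 libraries each, and the nearest genes outside it were Kcnn4 and Kcnj16, which reached 10 counts in 2 libraries each. Of the 15 genes below the limit, Kcnj1 and Kcnk16 had no counts in any library.

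Polyadenylated RNA of C57BL/6 mouse foetuses was sequenced in 4 groups. Germline-deleted Phf6-/Y cortex (n = 5) was compared with Phf6+/Y cortex (n = 3) at E15.5, directly after dissection. Cortical neurons from E16.5 foetuses were cultured overnight from Phf6lox/Y;Nes-creTg/+ (n = 4) and Phf6+/Y;Nes-creTg/+ (n = 3) foetuses, so all neuron libraries, controls included, carried the Nes-cre transgene, in which nestin sequences drive the recombinase in neural cells. PHF6 is a chromatin-associated protein, and the study asked which genes depend on it in foetal cortex. The labels gave the litter of each library, and the study counts as many foetuses in each group as there are libraries.

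Potassium channels let potassium leave a neuron, which brings its membrane back toward rest after an action potential and holds it there between them. The voltage-gated (Kv) pores open on depolarisation, the calcium- and sodium-activated pores open when these ions rise inside the cell, the inward rectifiers pass current best near the resting potential, and the K2P pores, which carry a tandem pore domain, give background leak. Auxiliary subunits change the traffic and gating of the pores. In the foetal cortex the set of channels changes as progenitor cells leave the cell cycle and become excitable neurons.

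Total counts per library ranged from 16858007 to 31157700. Levels within a gene are given as CPM, counts scaled to library size with TMM factors over all libraries. Phf6 was at 149 to 191 CPM in control cortex and 42.4 to 55.2 in deleted cortex, and at 228 to 259 in control and 59.9 to 85.8 in deleted neurons. The deletion removes part of the gene, so these whole-gene counts include reads on the remaining exons. In the study no reads mapped to the deleted exons, and PHF6 protein was absent from deleted foetal brain. The 6 neuron markers listed summed to 4498 to 5735 CPM in cortex and 7655 to 8810 CPM in neurons. The 5 endothelial markers summed to 124 to 270 CPM in cortex and 3.70 to 7.32 CPM in neurons, and Cldn5 was at 0 in all 3 control neuron libraries. Neural markers differed too. The 7 radial glia and progenitor markers summed to 1404 to 1689 CPM in cortex and 431 to 676 CPM in neurons. For the 6 interneuron markers it was 487 to 654 and 101 to 189 CPM, and for the 5 excitatory neuron markers 729 to 1279 and 1964 to 2462 CPM. Deleted cortex replicate 1, of litter 3, stood apart from the other cortices, with 729 CPM of the 5 excitatory neuron markers against 1085 to 1279 in the other 7. Comparisons of deleted with control cortex are given with and without it where its value bears on them. In such bulk samples, fewer cells of a type and less RNA per cell cannot be told apart.

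Promoter sequences are shown for Kcnj8 and Kcnj2, inward rectifiers on opposite sides of the comparison of cortex with cultured neurons, which were chosen after their values were seen. The RefSeq promoter table of GRCm38.p6 (the mm10 build that the submitters' processing notes name) held 75 promoter entries for 53 of the 75 members. The 250 bases before the start are shown 5′ to 3′ on the gene's strand, with capitals marking 4 short motifs searched on either strand, which are the TATA box (TATAAA), the CCAAT box (CCAAT), the GC box (GGGCGG) and the CRE half-site (TGACG).
Kcnj8, chr6:142571615-142571864, minus strand: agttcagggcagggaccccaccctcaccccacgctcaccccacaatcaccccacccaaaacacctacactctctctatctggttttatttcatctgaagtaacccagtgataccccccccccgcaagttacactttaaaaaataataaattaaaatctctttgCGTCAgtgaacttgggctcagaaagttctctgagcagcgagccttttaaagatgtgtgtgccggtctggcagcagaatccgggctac
Kcnj2, chr11:111065914-111066163, plus strand: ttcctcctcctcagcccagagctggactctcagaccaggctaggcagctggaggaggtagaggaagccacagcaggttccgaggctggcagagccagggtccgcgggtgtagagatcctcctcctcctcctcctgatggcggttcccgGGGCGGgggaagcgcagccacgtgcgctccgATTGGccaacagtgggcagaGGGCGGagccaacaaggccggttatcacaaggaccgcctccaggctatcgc
The Kcnj8 window held 6 CpG dinucleotides and 49.2% G and C, with 1 TGACG match and none of the other letters. The Kcnj2 window held 14 CpG and 65.6% G and C, with 1 CCAAT and 2 GGGCGG matches. Over all 32851 promoter entries the median was 6 CpG, and over the 75 entries of members it was 9. GGGCGG was present in 49.3% of the members' entries and 32.7% of all entries, CCAAT in 29.3% and 33.8%, TGACG in 16% and 17.8%, and TATAAA in 1.33% and 12.4%. These matches describe the letters of the windows and nothing about binding.

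Levels of different genes were compared as RPKM, the CPM value divided by the exon length in kilobases. The highest mean in control cortex was that of Kcnmb4, the neuronal beta subunit of large-conductance calcium-activated channels, at 16.4 ± 2.15 RPKM (SD, n = 3). Its first place was not resolved by 3 libraries. Kcnmb4 shares its locus with the counted genes Kcnmb4os1 and Kcnmb4os2, and the strand setting of the counting was not given. Kcnip3, a calcium-binding partner of Kv4 pores, was at 12.3 ± 0.768 RPKM, and Kcnq3, a Kv7 pore of the M-current, at 11.4 ± 2.33 RPKM. The next were Kcnj11, the pore of neuronal ATP-sensitive channels (11.1 ± 0.486 RPKM), Kcnk10 and Kcnk2 of the TREK leak channels (10.8 ± 1.31 and 10.3 ± 1.28), the silent subunit Kcng1 (10.8 ± 1.52), the Kv4 pore Kcnd3 (10.1 ± 0.569) and the Kv4 partner Kcnip1 (9.86 ± 0.809). From Kcnip3 to Kcnip1 each range overlapped that of its neighbour in the order, so the order among these members was not resolved by 3 libraries.

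In control neurons Kcnmb4 again had the highest mean, at 26.4 ± 3.05 RPKM, and its first place was again not resolved. Kcnk2 was at 20.05 ± 1.55 RPKM. Kcnq3 was at 18.4 ± 1.31 RPKM, and its libraries did not overlap those of Kcnj11 at 15.2 ± 1.04. Kcnj3, a G-protein-gated inward rectifier, stood at 12.04 ± 1.48 RPKM in neurons and 5.14 RPKM in cortex. The median member was at 1.76 RPKM in control cortex and 1.97 RPKM in control neurons, and 25 and 24 of the 75 members lay below 1 RPKM. Summed over the members, CPM were 998 to 1094 in control cortex and 1261 to 1364 in control neurons.

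**Figure D1:**
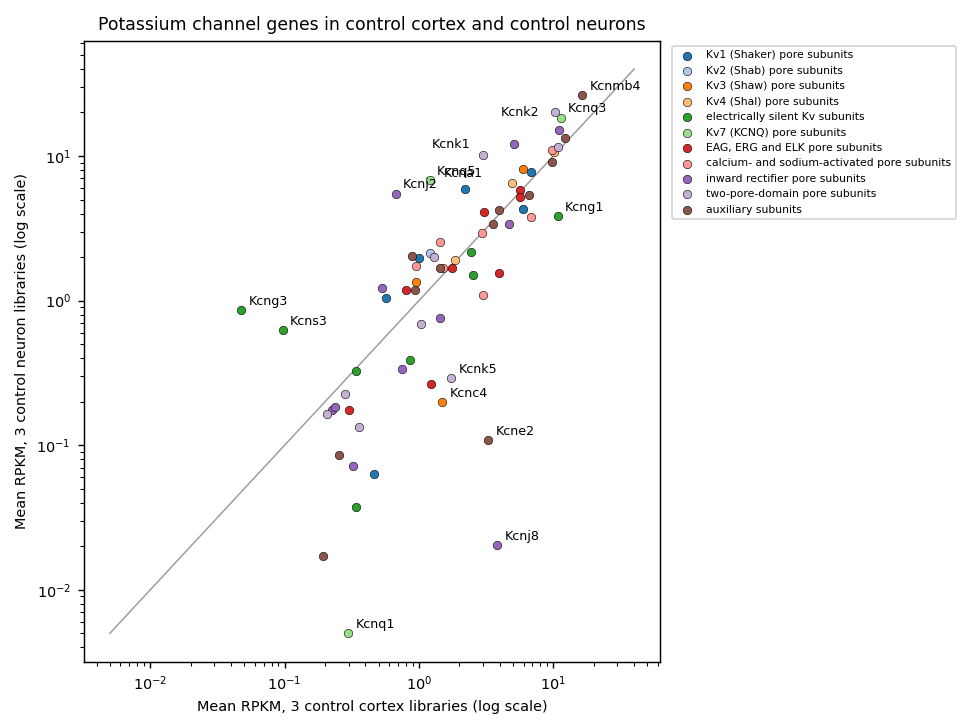
Mean RPKM of 71 of the 75 members over 3 control cortex libraries (horizontal, log scale) and 3 control neuron libraries (vertical, log scale), coloured by role, with the line of equal level; Kcnq1, at 0 in control neurons, is drawn at the lower edge. Kcnmb4 lies at the top in both, Kcnj2, Kcng3 and Kcns3 lie far above the line, and Kcnj8, Kcnq1 and Kcne2 far below it.

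Control neurons were then set against control cortex to see which members differ between the cultured neurons and the whole tissue. Stage, culture and the Nes-cre transgene differ together with the tissue and cannot be told apart. In edgeR's quasi-likelihood test with p-values adjusted by Benjamini-Hochberg over 14320 genes (FDR below 0.05), 24 of 72 tested members were higher in neurons and 18 were lower, while 24.7% and 26.4% of all tested genes were. That is 33.3% and 25.0% of the members tested. With library totals in place of TMM the members split into 19 higher and 20 lower, and the median of all genes moved from -0.03 to -0.17 on the log2 scale. Of all 14320 genes, 2459 were then higher and 5003 lower. The median log2 difference of the members was 0.08. Kcne2, Kcne3 and Kcne4 had too few counts in these libraries to be tested. Among the called members, Kcng3, Kcns3, Kcna5, Kcng2, Kcnq1, Kcnj5 and Kcnj8 did not reach 10 counts in 3 libraries of every group. Most or all of the libraries in which they reached it were of the tissue where they were higher. For these members the count rule itself favours a large difference between the tissues.

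Among the inward rectifiers, 4 of 11 were higher in neurons and 4 were lower, 36.4% each, against 24.7% and 26.4% of all tested genes. The lower Kcnj5 and Kcnj8 are among the members for which the count rule favours a difference. Kcnj2, a strong inward rectifier that sets the resting potential, was at 3.35, 3.45 and 4.19 CPM in the control cortices and at 24.2, 28.5 and 37.1 CPM in the control neurons. No cortex library reached the neuron range, and the log2 difference was 3.03 ± 0.19 (SE, as for all log2 differences; 8.16-fold, FDR = 9.23e-08, edgeR's quasi-likelihood test, Benjamini-Hochberg adjusted). Kcnj3 was higher by 1.23 ± 0.18. The other G-protein-gated members tested were not higher, with Kcnj5 at -2.16 ± 0.54 and Kcnj9 at -0.94 ± 0.30, both lower, and Kcnj6 at -0.36 ± 0.40, not called.

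Kcnj8 was nearly absent from the control neurons. It encodes the pore of ATP-sensitive channels of vascular smooth muscle and pericytes. It was at 7.01, 9.39 and 8.83 CPM in the control cortices and at 0, 0.0461 and 0.0877 CPM in the control neurons. The summed counts were 680 and 3, a ratio of 219 per read sequenced, with an exact 95% counting interval of 74.5 to 1063 that covers counting error only. Abcc9, the sulphonylurea receptor that pairs with this pore, was at 23.2 to 27.1 CPM in control cortex and at 0, 0 and 0.263 CPM in control neurons. The 5 mural cell markers listed were all lower in neurons, and their sum was 75.9 to 110 CPM in control cortex against 6.93 to 7.70 CPM in control neurons. Their part in the Kcnj8 difference was not tested. Kcnj11, the other ATP-sensitive pore, was higher in neurons by 0.45 ± 0.10.

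**Figure D2:**
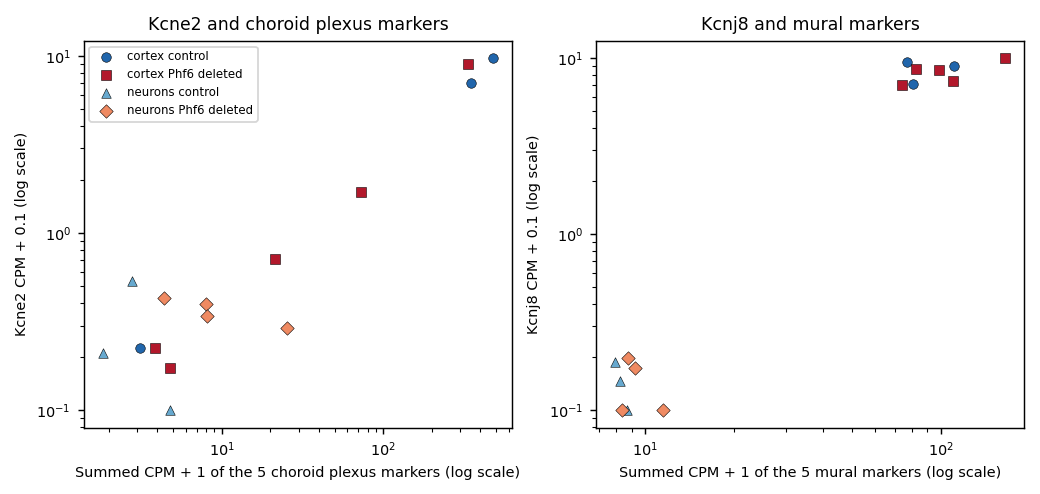
Left, CPM of Kcne2 against the summed CPM of 5 choroid plexus markers; right, CPM of Kcnj8 against the summed CPM of 5 mural markers; 1 point per library, log scales, marked by group. Every neuron library lies at low Kcnj8 and low mural markers, and the 3 cortex libraries highest in Kcne2 are the 3 highest in choroid plexus markers.

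The Kv7 pores described here ran in both directions. Kcnq5, an M-current subunit, was at 5.26, 8.28 and 11.6 CPM in control cortex and at 37.7, 44.2 and 60.4 CPM in control neurons, a log2 difference of 2.51 ± 0.31 (FDR = 0.000452, edgeR's quasi-likelihood test, Benjamini-Hochberg adjusted). Kcnq3 was higher by 0.69 ± 0.13. Kcnq1, known from heart and epithelia, summed to 73 counts in control cortex and 0 in control neurons, at least 23.5-fold lower against a floor of 3 counts over the group. Kcnq1 shares its locus with the counted antisense gene Kcnq1ot1, and the strand setting of the counting was not given in the sources used here.

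Of the Shaker (Kv1) pores, 3 of 6 (50.0%) were higher in neurons and 2 (33.3%) were lower, against 24.7% and 26.4% of all tested genes. The lower Kcna5 is among the members for which the count rule favours a difference. Kcna1, an axonal channel that limits repetitive firing, was at 18.1, 21.2 and 19.9 CPM in control cortex and 55.3, 47.0 and 56.2 CPM in control neurons (log2 difference 1.42 ± 0.11). Kcna2, which assembles with it, was higher by 0.97 ± 0.19. Kcna5 was lower, at -2.76 ± 0.67 from 0.876 to 1.89 CPM in cortex, and so was Kcna6, at -0.47 ± 0.14. Kcnb2, a delayed rectifier, was higher by 0.82 ± 0.17.

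The silent Kv subunits, which form no channel alone and modify Kv2 pores, ran in both directions, with 2 of 8 higher and 4 lower. These were 25.0% and 50.0%, against 24.7% and 26.4% of all tested genes. Both higher members, Kcng3 and Kcns3, and the lower Kcng2 are among those for which the count rule favours a difference. The shares are therefore not a like comparison with all genes. Kcng3 was at 0.0806 to 0.282 CPM in control cortex and 3.81, 2.17 and 2.68 CPM in control neurons, a log2 difference of 4.07 ± 0.52. Kcns3 was higher by 2.67 ± 0.45. Kcng1 was at 24.2, 28.8 and 21.9 CPM in control cortex and 6.35, 11.2 and 9.12 CPM in control neurons, a log2 difference of -1.498 ± 0.196, and Kcng2 was lower with -3.08 ± 0.71 from 0.685 to 1.11 CPM in control cortex. Kcnc1, a Shaw (Kv3) pore of fast-firing cells, was higher by 0.44 ± 0.09. Kcnc4, of the same group, was at 4.32, 4.71 and 4.47 CPM in control cortex and at 0.587, 0.461 and 0.746 CPM in control neurons, a log2 difference of -2.90 ± 0.34 with no overlap.

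In the EAG, ERG and ELK group no member was higher and 2 of 8 (25.0%) were lower. Of all tested genes, 24.7% were higher and 26.4% lower, so the lower share was near that of all genes. Kcnh1, the EAG pore, went from 8.60, 11.1 and 6.69 CPM in control cortex to 2.13, 1.57 and 2.02 CPM in control neurons (log2 difference -2.20 ± 0.26), and Kcnh4, an ELK pore, was lower too, at -1.35 ± 0.24. Among the ion-activated pores, Kcnma1, the large-conductance calcium-activated pore, was higher by 0.81 ± 0.17 and the sodium-activated Kcnt2 by 0.86 ± 0.24. Its close relative Kcnt1 was lower, at -1.46 ± 0.19, as was the small-conductance pore Kcnn1, at -0.87 ± 0.14. Of 7 such pores 2 were higher and 2 lower, 28.6% each, against 24.7% and 26.4% of all tested genes.

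The leak channel Kcnk1 (TWIK) was at 4.76, 7.88 and 7.94 CPM in control cortex and 24.3, 23.7 and 22.02 CPM in control neurons, a log2 difference of 1.77 ± 0.19. Kcnk2 (TREK) was higher by 0.96 ± 0.11, while its relative Kcnk10 was at 0.09 ± 0.13 and not called. Kcnk5, a pH-sensitive leak channel, was at 6.98, 4.40 and 6.13 CPM in control cortex and 1.504, 0.508 and 0.921 CPM in control neurons, a log2 difference of -2.55 ± 0.37. Of the auxiliary subunits tested, 2 of 9 (22.2%) were higher, against 24.7% of all tested genes. They were Kcnmb2 by 1.206 ± 0.263 and Kcnmb4 by 0.68 ± 0.14. Kcnab2, a cytoplasmic Kv1 partner, was lower, at -0.31 ± 0.12 (FDR = 0.0467, edgeR's quasi-likelihood test, Benjamini-Hochberg adjusted), a call that DESeq2 and another scaling of edgeR did not make.

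**Figure D3:**
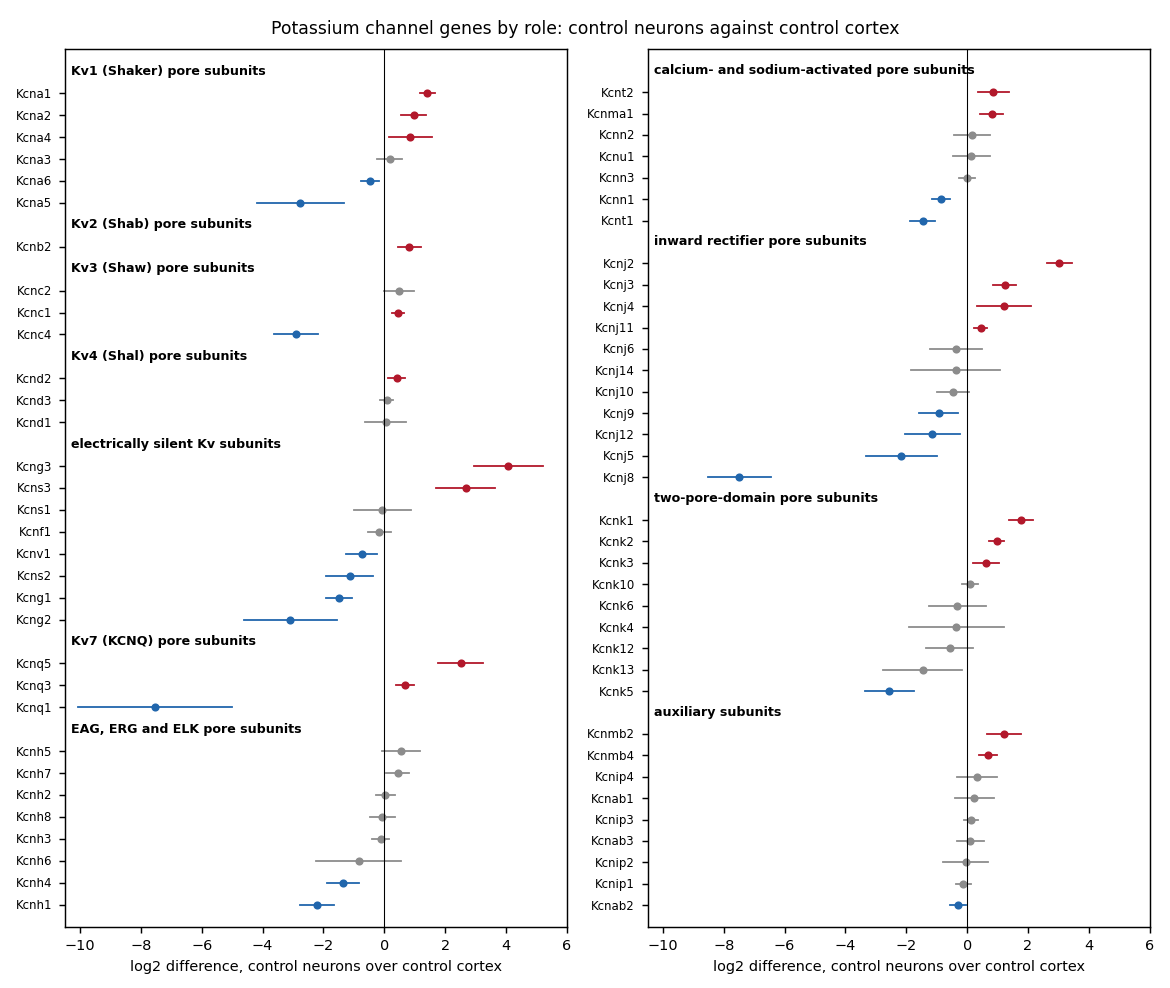
log2 difference between control neurons and control cortex for 68 of the 72 tested members, by role, with 95% intervals from the fit; red marks members higher and blue members lower in neurons at FDR below 0.05. Kcng3 at 4.07 and Kcnj2 at 3.03 lie furthest to the right, and Kcnq1 and Kcnj8 furthest to the left. Of these, only Kcnj2 reached 10 counts in 3 libraries of every group.

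The same contrast was made in the Phf6-deleted libraries, which did not enter the comparison of controls. They did enter the count rule, and all but the culture of litter 7 share a litter with a control. For Kcng3, Kcns3, Kcna5, Kcng2, Kcnq1, Kcnj5 and Kcnj8 the rule thus favours the same sign here too. These members are included in the counts below. All 24 higher members had the same sign there and 21 were called, or 87.5%. All 18 lower members had the same sign and 16 were called, or 88.9%. Over all genes called in the controls the shares were 87% and 88.9%. Kcnb2, Kcnd2 and Kcnt2 among the higher members, and Kcns2 and Kcnab2 among the lower, were not called in the deleted libraries.

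Some calls between the controls rested on 1 library. In edgeR's quasi-likelihood test, Benjamini-Hochberg adjusted, Kcna6 was at -0.38 without neuron control replicate 2 (FDR = 0.0687) and Kcnj5 at -1.59 without cortex control replicate 1 (FDR = 0.0593). Kcnj9 was at -0.86 without cortex control replicate 1, -0.70 without neuron control replicate 1 and -0.89 without neuron control replicate 2, and not called in any of these. Among the fits with a library left out, the Kcnab2 call was made only without cortex control replicate 3, and its estimates ran from -0.38 to -0.26. Kcna4, Kcnd2, Kcnk3, Kcnj4, Kcnj12, Kcnv1 and Kcns2 also lost their calls when at least 1 of the libraries was left out.

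Kcne2, an auxiliary subunit strongly expressed in choroid plexus, was the most uneven member. It was at 0.125, 9.59 and 6.89 CPM in control cortex and at 1.60, 0.609, 0.0731, 8.95 and 0.125 CPM in deleted cortex. The 3 libraries above 6 CPM were those with 335 to 475 CPM of the 5 choroid plexus markers, which were at 2.13 to 72.1 CPM in the other cortices. The part of these cells in the Kcne2 values was not tested.

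Phf6-deleted cortex was compared with control cortex, with litter as a term in the fit. In edgeR's quasi-likelihood test with p-values adjusted by Benjamini-Hochberg, 0 of 73 tested members were higher and 0 were lower at FDR below 0.05, where 0.319% and 0.0678% of 14750 genes were. DESeq2 called 1 member, Kcnh4, and limma-trend called 0. Of all 14750 genes DESeq2 called 156 higher and 43 lower, and limma-trend called 51 and 10. Without deleted replicate 3 edgeR called Kcnh4 too (FDR = 0.0449). At an unadjusted p below 0.05, 12 members (16.4%) lay higher and 4 (5.48%) lower, against 5.69% and 4.77% of all genes. The median log2 difference was 0.07 over the members and 0.00 over all genes. Without deleted replicate 1 the members' median was 0.14, with 51 of 73 estimates positive against 40 of 73 with it, and the median of all genes was 0.01. The counts at an unadjusted p below 0.05 were then 9 and 1 (12.3% and 1.37%), against 5.3% and 3.1% of all genes. Without control replicate 1, of the same litter, they were also 9 and 1. Without deleted replicate 2 they were 8 and 2, and without control replicate 3 they were 10 and 7. Of these fits, shares over all genes were computed only for that without deleted replicate 1.

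Kcnh4, one of the ELK pores, had the smallest p. It was at 18.8, 15.3 and 10.6 CPM in the control cortices of litters 3, 2 and 1. In deleted cortex it was at 25.3 in litter 3, at 24.8 and 16.7 in litter 2, and at 17.6 and 18.3 in litter 1. Deleted libraries lay above the control of their own litter in all 3 litters, while the groups overlapped across litters. The log2 difference was 0.54 ± 0.14 (FDR = 0.139), and 0.60 ± 0.16 without deleted replicate 1 (FDR = 0.279), both from edgeR's quasi-likelihood test, Benjamini-Hochberg adjusted.

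Kcnma1 was at 11.2, 11.0 and 11.6 CPM in control cortex and at 14.7, 14.1, 17.7, 15.8 and 15.9 CPM in deleted cortex. The groups did not overlap, and the log2 difference was 0.46 ± 0.12 (FDR = 0.149, edgeR's quasi-likelihood test, Benjamini-Hochberg adjusted). Kcnj5 was at 2.38, 0.871 and 1.09 CPM in controls and at 4.45, 2.08, 2.01, 2.45 and 2.01 CPM in deleted cortex, which overlap, with a log2 difference of 1.05 ± 0.28. Kcnh8, an ELK pore, was at 0.45 ± 0.15, and the Shaker pores Kcna6 and Kcna2 were at 0.25 ± 0.08 and 0.34 ± 0.12. Of the members with a negative estimate, Kcnip1 was at -0.34 ± 0.12, Kcnn1 at -0.29 ± 0.11 and Kcnip3 at -0.25 ± 0.10. None of these passed the adjusted threshold. Without deleted replicate 1, Kcnma1 was at 0.49 ± 0.15, Kcnj5 at 1.13 ± 0.37, Kcnh8 at 0.42 ± 0.18, Kcna6 at 0.30 ± 0.10 and Kcna2 at 0.27 ± 0.14. The negative estimates were then -0.29 ± 0.14 for Kcnip1, -0.35 ± 0.12 for Kcnn1 and -0.13 ± 0.10 for Kcnip3, a smaller value for the last of them. Again none passed the adjusted threshold.

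Deleted replicate 1 lay far below the other cortices for several members. Kcnh3 was at 8.61 CPM there and at 18.3 to 22.3 CPM in the other 7 cortices, Kcnj11 at 14.4 against 31.1 to 37.2 CPM, and Kcnq3 at 15.3 against 28.1 to 42.4 CPM. With that library the log2 differences of Kcnh3, Kcnj11 and Kcnq3 were -0.32 ± 0.17, -0.41 ± 0.21 and -0.17 ± 0.23. Without it they were -0.04 ± 0.12, -0.10 ± 0.11 and 0.09 ± 0.17.

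Phf6-deleted neurons were compared with control neurons in the same way. Of 66 tested members 1 was higher and 0 were lower at FDR below 0.05, where 0.194% and 0.0791% of 13909 genes were. DESeq2 and limma-trend each called 1 member higher and 0 lower. Over all 13909 genes DESeq2 called 47 higher and 15 lower, and limma-trend 30 and 12. At an unadjusted p below 0.05, 9 (13.6%) lay higher and 3 (4.55%) lower, against 5.87% and 4.46% of all genes. Without the control or the deleted culture of litter 5 these counts were 3 and 2, and without either culture of litter 4 they were 6 and 5. Without either culture of litter 6 they were 10 and 4. Shares over all genes at this p were not computed for these fits, so the shifts cannot be assigned to the family. The median log2 difference of the members was 0.07. The culture of litter 7 has no control of its litter and gives no information on the genotype in this fit.

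The called member was Kcnh3, an ELK pore of forebrain neurons, on chromosome 15 from 99224517 to 99242818 (GRCm38.p6). It was at 17.2, 20.2 and 18.8 CPM in the control neurons of litters 4, 5 and 6. In deleted neurons it was at 23.0, 28.8 and 31.6 CPM in those litters and at 29.2 CPM in litter 7. All 4 deleted cultures lay above all 3 controls. The log2 difference was 0.56 ± 0.11, with a 95% interval of 0.33 to 0.79 (FDR = 0.0437, edgeR's quasi-likelihood test, Benjamini-Hochberg adjusted). The call was lost without control replicate 2 (FDR = 0.182) or deleted replicate 3 (FDR = 0.138), the pair of litter 5, with estimates of 0.58 in both fits, and without litter as a term (FDR = 0.350). Calls over all genes fell in those fits too. They were 12 higher and 4 lower of 14110 without control replicate 2, and 15 and 6 of 13807 without deleted replicate 3. Without litter as a term they were 0 and 1 of 13909, against 27 and 11 in the main fit. Kcnh3 overlaps the counted gene Mcrs1 in the annotation, and the strand setting of the counting was not given in the sources used here.

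Kcnip1, the Kv4 partner, was at 26.0, 25.1 and 23.4 CPM in control neurons and at 18.7, 14.8, 16.4 and 19.8 CPM in deleted neurons. The groups did not overlap, and the log2 difference of -0.55 ± 0.12 missed the threshold (FDR = 0.0929, edgeR's quasi-likelihood test, Benjamini-Hochberg adjusted). Kcnip1 is known from cortical interneurons. The 6 interneuron markers listed summed to 101 to 187 CPM in control and 117 to 189 CPM in deleted neurons, and none of them was called. Their part in the Kcnip1 difference was not tested.

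Kcnk2, the TREK leak channel, was at 86.4, 76.0 and 75.6 CPM in control neurons and at 62.6, 71.9, 59.4 and 61.2 CPM in deleted neurons, again without overlap. Its log2 difference was -0.31 ± 0.07 (FDR = 0.0928, edgeR's quasi-likelihood test, Benjamini-Hochberg adjusted). Kcna4, the Shaker pore with fast inactivation, was at 3.63, 4.43 and 6.97 CPM in controls and at 4.93, 7.69, 8.08 and 8.17 CPM in deleted neurons, with a log2 difference of 0.72 ± 0.21. Kcnj3, Kcnk1 and Kcnq5 had estimates of 0.33 ± 0.11, 0.26 ± 0.10 and 0.23 ± 0.09, none of them past the adjusted threshold. Kcnmb4 and Kcnq3, among the most abundant members, were at 0.06 ± 0.10 and 0.12 ± 0.07.

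**Figure D4:**
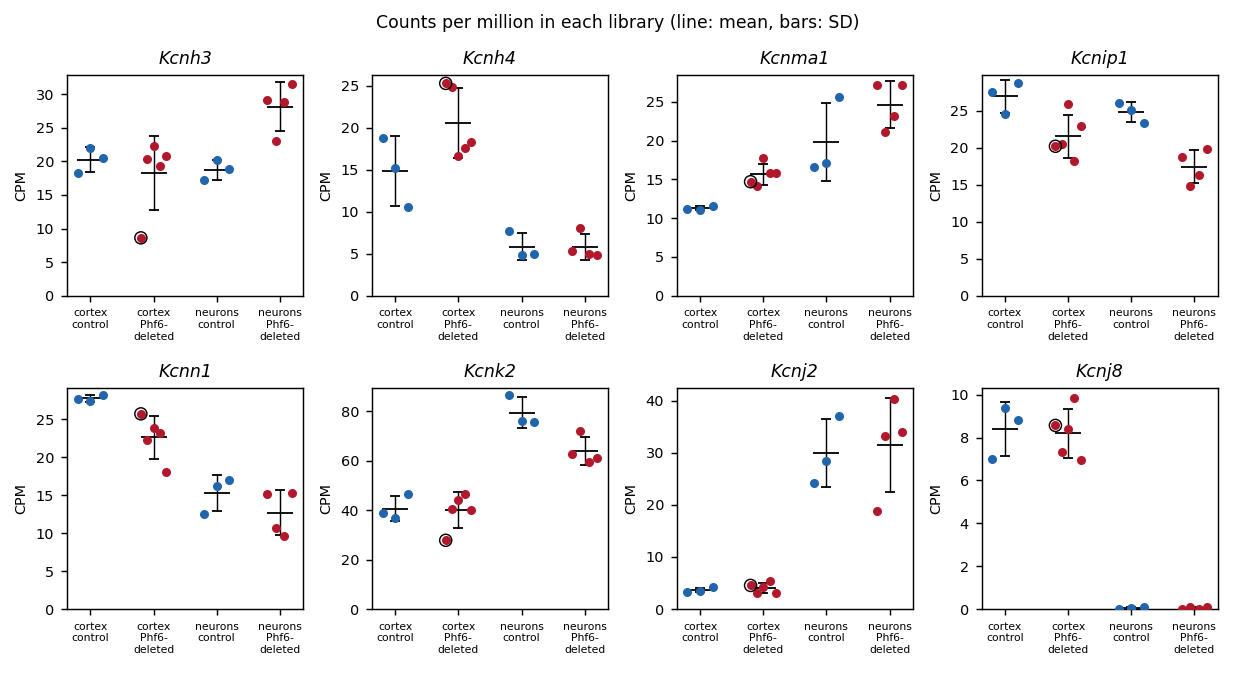
CPM of 8 members in each library by group (blue control, red Phf6-deleted), with the group mean as a line and the SD as bars; the ring marks cortex Phf6-deleted replicate 1. Kcnh3 lies higher in deleted neurons and not in deleted cortex, Kcnip1 and Kcnk2 lie lower in deleted neurons without overlap, and Kcnj2 and Kcnj8 separate neurons from cortex.

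Both genotype comparisons use separate controls. Of 64 members tested in both, 4 (6.25%) had an unadjusted p below 0.05 in both with the same direction, and 2.24% of 13733 genes did. Kcnma1 was at 0.46 ± 0.12 in cortex and 0.28 ± 0.11 in neurons. Kcnip1 was at -0.34 ± 0.12 and -0.55 ± 0.12, and Kcnn1 at -0.29 ± 0.11 and -0.36 ± 0.14. None of the 4 passed the adjusted threshold in either comparison. Without cortex deleted replicate 1 the count was 3 of 64 (4.69%), and 2.21% of all genes, since Kcnip1 then had an unadjusted p of 0.0582 in cortex (edgeR's quasi-likelihood test). Kcnn1 was at 27.4 to 28.2 CPM in control cortex and 18.1 to 25.7 CPM in deleted cortex, without overlap, whereas its neuron libraries, at 12.5 to 17.0 and 9.61 to 15.3 CPM, overlapped.

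**Figure D5:**
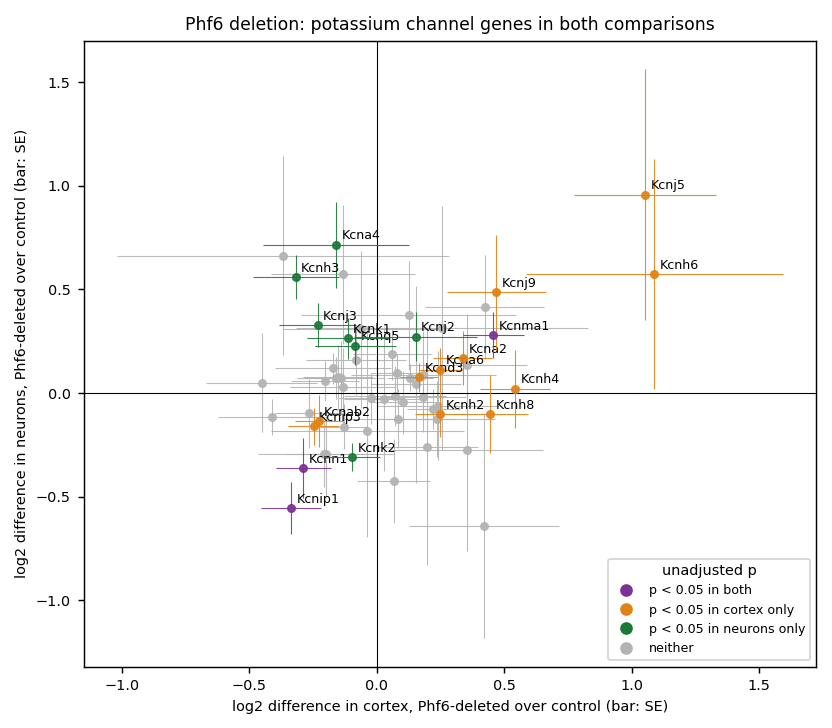
log2 difference between Phf6-deleted and control libraries in cortex (horizontal) and neurons (vertical) for 60 of the 64 members tested in both, with standard errors as bars and colour by unadjusted p. Kcnma1 lies in the upper right and Kcnip1 and Kcnn1 in the lower left, while Kcnh3 is positive in neurons and negative in cortex. The cortex estimate of Kcnh3 was not called, and most of it was lost without cortex deleted replicate 1.

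The difference between the 2 genotype effects was tested in 1 fit over all 15 libraries. In edgeR's quasi-likelihood test with adjusted p-values, 0 of 75 members were higher and 0 lower at FDR below 0.05, and 0.00667% of 15001 genes were in each direction. At an unadjusted p below 0.05, 4 members (5.33%) had a more positive effect in neurons and 3 (4.00%) a more negative one, against 2.27% and 2.92% of all genes. With a library left out these counts ranged from 2 to 6 and from 1 to 4, and shares over all genes were not computed for those fits. The 4 were Kcnh3, Kcnj3, Kcna4 and Kcnk1, and the 3 were Kcnh4, Kcnh8 and Kcnh2, the latter an ERG pore. With every library in the fit, all ELK members were thus among the 7. Without cortex deleted replicate 1 the counts were 2 and 2, so not all of the 7 remained. For Kcnh3 the difference was 0.87 ± 0.22 (FDR = 0.623), and 0.60 ± 0.15 without cortex deleted replicate 1 (FDR = 0.836), again from edgeR's quasi-likelihood test, Benjamini-Hochberg adjusted. Kcnh4 was at -0.53 ± 0.22.

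By role, 5.69% of all genes lay higher and 4.77% lower in cortex at an unadjusted p below 0.05. In the EAG, ERG and ELK group 4 of 8 lay higher, and 3 of 8 without deleted replicate 1. In the Kv1 group it was 3 of 6, and 1 of 6 without that library. Among the auxiliary subunits 3 of 12 lay lower, and 0 of 12 without it. In 4 of the 11 role groups, the silent Kv subunits and the K2P pores among them, no member lay on either side. The median log2 difference of the EAG, ERG and ELK pores was 0.22 in cortex and 0.05 in neurons. For the Kv1 pores it was 0.16 and 0.11, and for the auxiliary subunits -0.20 and -0.14. The K2P pores had a median of -0.08 in cortex and 0.10 in neurons. Without deleted replicate 1 the cortex medians were 0.28 for the EAG, ERG and ELK pores, 0.19 for the Kv1 pores, -0.11 for the auxiliary subunits and 0.01 for the K2P pores, the last with its sign turned. The silent Kv subunits turned too, from -0.14 to 0.19. None of the role groups held an adjusted call apart from Kcnh3.

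The genes that work with these channels were read from a list of 18 partners and relatives outside the family. Between control neurons and control cortex, 8 of 15 tested were higher and 4 lower at FDR below 0.05, where 24.7% and 26.4% of all genes were. Hcn2 and Hcn4, pores of the hyperpolarisation-activated current, were higher by 1.11 ± 0.15 and 0.67 ± 0.10. Lrrc55, an auxiliary protein of Kcnma1 channels, was higher by 1.24 ± 0.12, and Cntnap2, which clusters Kv1 channels along axons, was lower, at -0.93 ± 0.14. Between genotypes 0 of 15 partners in cortex and 0 of 14 in neurons passed the adjusted threshold. At an unadjusted p below 0.05, 4 lay higher and 0 lower in cortex, where 5.69% and 4.77% of all genes did, and without deleted replicate 1 the counts were again 4 and 0. They were Dpp6, a Kv4 partner, at 0.30 ± 0.07, Ank3, a scaffold of the axon initial segment, at 0.19 ± 0.06, Abcc9 at 0.27 ± 0.11 and Hcn4 at 0.25 ± 0.10. In neurons 5 lay higher and 2 lower, where 5.87% and 4.46% of all genes did. Of the 4 from cortex, Ank3 and Dpp6 were among these 5, at 0.21 ± 0.05 and 0.19 ± 0.07. Hcn4 was not, at 0.09 ± 0.09, and Abcc9 was not tested in neurons. The 2 lower were Abcc8, the sulphonylurea receptor that pairs with Kcnj11, at -0.29 ± 0.08, and Hcn3 at -0.23 ± 0.08.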

How the data were processed

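The deposited table held counts of reads per gene, raw and not normalised, made by the authors from TruSeq stranded libraries with the Rsubread aligner and featureCounts against mm10, per the labels and the study's methods; the strand setting of the counting was not given in the sources used here. Of 27179 table entries, 1029 had no gene identifier (at most 0.605% of a library's counts) and were left out, as were pseudogenes (835), rRNA genes (35), predicted genes (1273) and identifiers not matched to RefSeq (875), which left 23132 genes. The members and the lists were chosen with earlier results of these data known. Members passed a rule of 10 counts in 3 libraries, and each fit kept the genes that filterByExpr retained.

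edgeR (version 4.0.16) in R (version 4.3.3) fitted the counts with TMM scaling and a robust quasi-likelihood test, with Benjamini-Hochberg adjustment over all tested genes. Litter was a term within a tissue, as in the study's methods; litters lie within a tissue, so it was not a term between control neurons and control cortex. Deviations of same-litter libraries from their group means were positively but weakly correlated, at 0.0713 to 0.307 in cortex and 0.102 to 0.299 in neurons. The pairing comes from the litter labels. DESeq2 (version 1.42.0), limma-trend (version 3.58.1), other scalings, no filter, no litter, replicate number as a block and leaving out each library were alternatives. CPM used TMM library sizes, and RPKM divided CPM by the deposited exon length. The scripts were tested on simulated data. Genes were named by a rule: called members, the 10 smallest p-values per genotype comparison, in each role the 2 largest called differences per direction between control neurons and control cortex, the 10 highest RPKM per tissue and the members nearest to the count rule; Kcne2, the channel partners, and other members given for a gene family or a list of calls were named after their values were seen. Depth was 16858007 to 31157700 counts per library. Results for some genes are not reported here and are left out of the figures; counts and medians over the family and its groups include them. Role groups, channel partners and genes shared by both genotype comparisons were recomputed without cortex deleted replicate 1, an alternative chosen after seeing the data.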

Additional observations from a re-analysis of the deposited data

Results flagged for a closer look

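In groups of 4 or 5 libraries, CPM of 43 named members were examined in 86 groups, and 8 had a library far from the others; chance gives about 1 in 20 groups. In cortex, 6 of the 8 were deleted replicate 1. There Kcnh3 was at 8.61 CPM (others 19.3 to 22.3), Kcnj11 at 14.4 (31.1 to 37.0), Kcnq5 at 4.24 (8.95 to 10.8) and Kcnn2 at 12.7 (19.7 to 22.1), all low, while Kcnj5 at 4.45 (2.01 to 2.45) and Kcnk10 at 32.3 CPM (27.1 to 28.4) were high. In deleted neurons, Kcna4 was at 4.93 CPM in replicate 1, below 7.69 to 8.17 in the others, and Kcnh4 at 8.06 CPM in replicate 2, above 4.85 to 5.32.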

How the results depend on the processing

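The split of 24 higher and 18 lower members between control neurons and control cortex stayed within 1.5 times under every setting tried; 15 of the 24 and 11 of the 18 were called in all of them. In cortex, 0 became 1 higher with DESeq2 (Kcnh4, FDR = 0.0294), and 0 to 1 higher when a library was left out (Kcnh4 without deleted replicate 3). Over all 14750 genes DESeq2 called 156 higher and 43 lower. Without deleted replicate 3 edgeR called 36 and 4 of 14672. In neurons, library totals gave 2 lower (Kcnk2 and Kcnip1), and no filter on low counts gave 2 higher (Kcnh3 and Kcna4) and 2 lower (Kcnk2 and Kcnip1). Over all genes, library totals gave 46 higher and 27 lower of 13909, and no filter gave 178 and 119 of 18063. With no litter term the 1 higher call fell to 0, and over all genes 0 were higher and 1 lower of 13909. With a replicate block by replicate number the member calls were also 0 (Kcnh3, FDR = 0.459, edgeR's quasi-likelihood test). Over all genes that block gave 3 higher and 2 lower of 13909. Same-numbered libraries did not deviate together throughout, with correlations of -0.240 to 0.254. Leaving out a library gave 0 to 5 higher and 0 to 2 lower in neurons: 0 higher without control replicate 2 or deleted replicate 3, and 5 higher (among them Kcna4, Kcnq5, Kcnh3 and Kcnj2) and 2 lower (Kcnk2 and Kcnip1) without control replicate 3 or deleted replicate 4, the pair of litter 6. Over all genes, 12 were higher and 4 lower of 14110 without control replicate 2. Without deleted replicate 3 they were 15 and 6 of 13807. Without control replicate 3 they were 335 and 159 of 14077. Without deleted replicate 4 they were 256 and 127 of 13812, against 27 and 11 of 13909 with every library. The cause was not tested. Leaving out libraries for the difference between the genotype effects was chosen after seeing the data and gave 0 calls each time; the replicate block gave 0 there too, and moved the counts between control neurons and control cortex to 23 and 18. Depth limits the low members: with 3 counts or fewer in control neurons, Kcnj8, Kcnq1 and Kcne3 have folds that are uncertain.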

Other observations

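Some members are close neighbours in the genome (GRCm38.p6). Their values are given side by side, and differences between neighbours were not tested. Kcna1, Kcna5 and Kcna6 lie within chromosome 6 from 126532551 to 126740834, and their log2 differences between control neurons and control cortex were 1.42 ± 0.11, -2.76 ± 0.67 and -0.47 ± 0.14. Kcna2 and Kcna3 lie 52.8 kb apart on chromosome 3, at 0.97 ± 0.19 and 0.18 ± 0.19. Kcnj9 and Kcnj10 lie 11.9 kb apart on chromosome 1, at -0.94 ± 0.30 and -0.47 ± 0.23. Kcnj10, an inward rectifier of glia, was at 25.9 CPM in control neuron replicate 1 and 13.4 and 15.8 CPM in the other control neurons. Kcne3 summed to 28 counts in control cortex and 2 in control neurons, a ratio of 13.5 per read sequenced with an exact 95% counting interval of 3.41 to 117, which covers counting error only.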
